A study of Mus musculus with 8 samples.

Results

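Glycolytic enzymes were followed through 10 genes, Aldoa, Gapdh, Pgk1, Pgam1, Eno1, Pkm, Ldha, Ldhb, Tpi1 and Gpi1, taken as probe sets with exactly 1 gene symbol in the array annotation. The rule found 31 probe sets out of 21218 with 1 symbol, and they stood for 8 of the 10 genes. Aldoa and Ldha had 1 probe set each, Tpi1, Pkm and Ldhb had 2 each, Pgk1 and Pgam1 had 3 each, and Gapdh had 17. Eno1, an enolase, and Gpi1, the glucose phosphate isomerase, had none that the annotation lists and were not analysed here. Glycolysis turns glucose into pyruvate in the cytosol. Its lower steps are carried out by a few very abundant enzymes, and lactate dehydrogenase then converts pyruvate and lactate into each other. Effector T cells are known for raising glycolysis when they are activated, with the factors HIF-1 and Myc driving many of the enzyme genes, while regulatory and resting T cells rely more on respiration.

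The samples were CD3-positive T cells taken out of grafts of human embryonic stem cell derivatives carried by wild-type CD1 mice, an outbred stock, at day 30. Tolerant samples (4 arrays) came from hosts given anti-CD4, anti-CD8 and CD40L, as the labels name the agents, and rejecting samples (4 arrays) came from untreated hosts. The graft itself is human and the arrays carry mouse probes. The labels number the arrays 1 to 4 in each group without tying a number to a mouse, so p-values measure the spread between these arrays, which may be technical. Values are log2 RMA values, the authors' normalized probe set summaries. Differences are tolerant minus rejecting on that scale.

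The arrays stood in 2 sets that cut across the groups. The share of 18820 genes above a background line, the 99th percentile of olfactory and vomeronasal receptor probe sets on the same array, was 15.94% to 16.26% on tolerant arrays 3 and 4 and 9.12% to 14.25% on rejecting arrays 3 and 4. On the arrays numbered 1 and 2 it was 2.52% to 2.77% in tolerant and 4.81% to 5.57% in rejecting samples. The lines lay between 0.99 and 1.35. Of 11 measured T cell markers, Cd3e, Cd5 and Cd8b1 passed the line on all 4 arrays numbered 3 and 4, and Cd3d, Cd247 and Cd28 passed it on none of the 8. Results are therefore also given for each set alone.

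Glycolytic enzyme transcripts were among the signals that separated the 2 sets. In bulk samples, fewer cells of a type and less RNA per cell cannot be told apart. In 24 of the 31 probe sets, all 4 arrays numbered 3 and 4 lay above all 4 numbered 1 and 2, against 10.1% of all probe sets tested. Of those 24, 17 are probe sets of Gapdh, and by gene 4 of the 8 brightest probe sets had this order. The 10.1% was not matched for brightness. Of the 31, 25 exceeded the line throughout arrays 3 and 4, as did only 1633 of the 21218 probe sets. The share with this order among those 1633 was not computed, so the excess cannot be taken as particular to the enzymes. On arrays 3 and 4, 7 of the 8 genes lay above the background line on each array. On arrays 1 and 2 it was 3 genes on each tolerant array and 3 and 4 genes on the rejecting arrays. As the plot of the enzymes by array shows, the brightest probe sets of Gapdh and Pgam1 lay above the line on all 8 arrays. Their mean on arrays 3 and 4 was higher than on arrays 1 and 2 by 3.59 for Gapdh and by 0.54 for Pgam1. Aldoa and Ldha lay above the line on all 4 arrays numbered 3 and 4 and under it on all 4 numbered 1 and 2, so the size of their gap is not known.

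**Figure D1:**
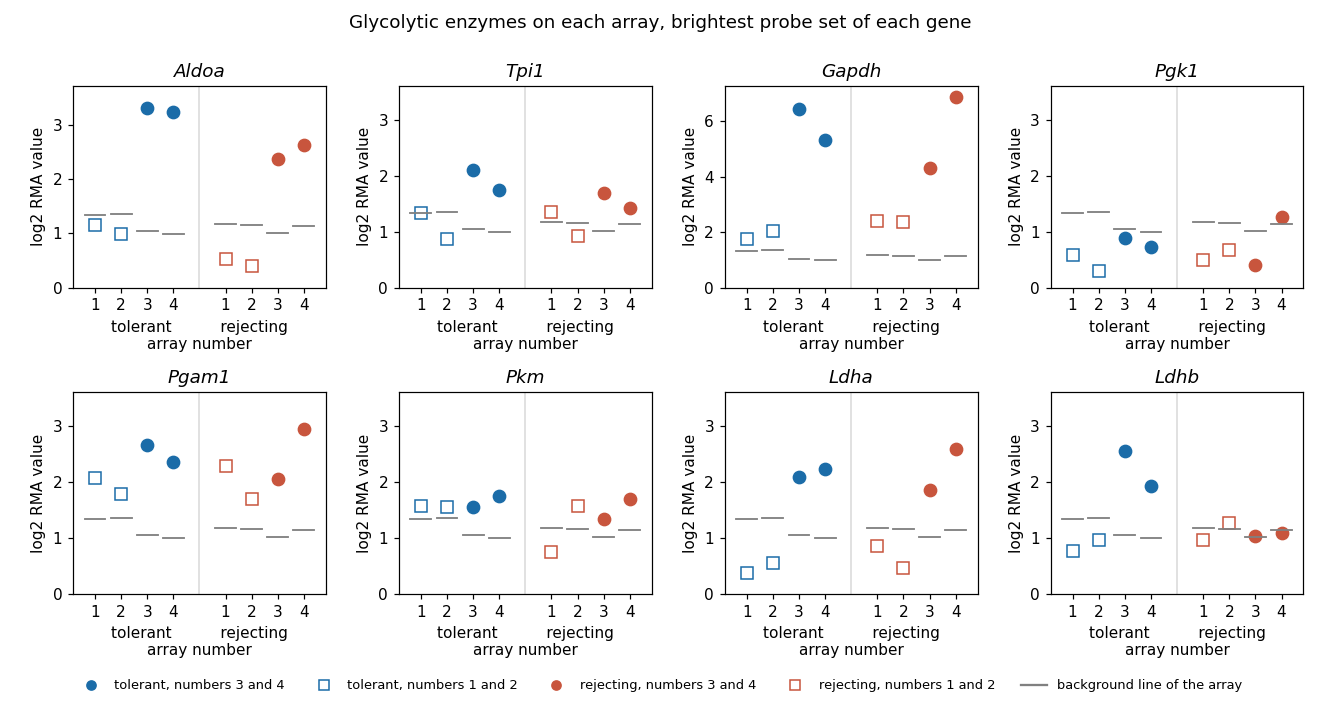
Log2 RMA values (vertical axis) of the brightest probe set of each measured enzyme on the 8 arrays, tolerant (blue) left of rejecting (red), with filled circles for arrays numbered 3 and 4, open squares for those numbered 1 and 2 and grey dashes for each array's background line. Aldoa and Ldhb lie higher on both tolerant arrays 3 and 4 than on both rejecting ones, and Gapdh, Pgk1, Pgam1 and Ldha are highest on rejecting array 4.

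Over all 8 arrays no enzyme passed limma between tolerant and rejecting samples. Of the 31 member probe sets 0 passed an adjusted p threshold of 0.05, as did 0% of all 21218. Without the adjustment, 0 of the 31 had p under 0.05 against 2.89% of all. Tolerant and rejecting values overlapped in all 31. In 24 of them the sets of arrays were fully apart. Each group held arrays of both sets, so these 24 had to overlap whatever the treatment did. Overlap was open only in the other 7, and the count of 31 is therefore no test of the groups. Among all probe sets, 1.09% had every tolerant array higher and 1.13% every tolerant array lower, shares that were not matched for the gap between the sets. The 8 genes had a median difference of 0.07, against 0.001 for all genes, and 4 of the 8 were higher. With the gap between the sets inside both groups, the standard error was 1.27 for the brightest Gapdh probe set and 0.70 for Aldoa.

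Within the arrays numbered 3 and 4, 2 orders of the arrays covered most of the enzyme probe sets. The probe sets of Aldoa and Ldhb, 1 of the 2 of Tpi1 and 1 of the 2 of Pkm were higher on both tolerant arrays than on both rejecting ones. Those of Gapdh, Pgk1, Pgam1 and Ldha were instead highest on rejecting array 4 and lowest on rejecting array 3, with the tolerant arrays between them. The brighter Pkm probe set and the dimmer one of Tpi1 had neither order. This grouping was made after the values were seen and carries no test. Counted over probe sets, 5 of 31 had both tolerant arrays above both rejecting ones and 0 had them below. The shares of all probe sets were 19.3% and 20%, so the first count is near the background. The order with rejecting 4 highest and rejecting 3 lowest held for 24 of 31, against 8.19% of all probe sets and 18.4% of the 1633 that lay above the line on all 4 arrays. Of those 24, 17 are probe sets of 1 gene, Gapdh, and are not separate observations. By gene, 4 of 8 brightest probe sets had that order. In limma 0 of the 31 passed on these arrays, where 0.0518% of all probe sets did, and 4 of 31 had an unadjusted p under 0.05 against 7.2% of all.

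Aldoa encodes aldolase A, which splits fructose bisphosphate into the triose phosphates. Its probe set (10568050) read 3.31 and 3.24 on tolerant arrays 3 and 4, against 2.37 and 2.63 on rejecting arrays 3 and 4. The groups did not overlap, with means of 3.28 ± 0.05 in tolerant and 2.50 ± 0.18 in rejecting samples (SD, n = 2 each). The limma estimate was 0.77 ± 0.13 (SE, adjusted p = 0.224). On the arrays numbered 1 and 2 it read 1.16 and 0.98 in tolerant and 0.53 and 0.40 in rejecting samples, which differ by 0.61 ± 0.16 (SE, limma adjusted p = 0.936). Both tolerant arrays were thus higher than both rejecting arrays in each set, but the arrays numbered 1 and 2 lay under their background lines. The difference between the sets came to 0.17 ± 0.20 (SE, limma interaction adjusted p = 0.893). Over all 8 arrays, blocking on the set gave a limma adjusted p of 0.345. Leaving out any 1 array kept the difference between 0.64 and 0.90 on arrays 3 and 4.

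Tpi1 encodes triose phosphate isomerase, which interconverts the aldolase products. Its brighter probe set (10547830) read 2.10 and 1.74 on tolerant arrays 3 and 4, against 1.69 and 1.42 on rejecting arrays 3 and 4. The lowest tolerant value was only just above the highest rejecting one, and the limma estimate was 0.36 ± 0.17 (SE, adjusted p = 0.708). The arrays numbered 1 and 2 read 1.33 and 0.87 in tolerant and 1.35 and 0.92 in rejecting samples, values that overlapped. The other probe set (10457729) overlapped on arrays 3 and 4, with 1.33 and 0.76 in tolerant and 0.78 and 0.75 in rejecting samples.

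Gapdh encodes the dehydrogenase that oxidises glyceraldehyde phosphate and is widely used as a reference transcript. Its brightest probe set (10353250) read 6.43 and 5.32 on tolerant arrays 3 and 4, against 4.32 and 6.87 on rejecting arrays 3 and 4. The rejecting arrays enclosed the tolerant ones, and limma gave 0.28 ± 0.85 (SE, adjusted p = 0.951). Single arrays decided its sign, because the difference was 1.55 without rejecting replicate 4 and -1.0 without rejecting replicate 3, and -0.28 without tolerant replicate 3. On arrays 1 and 2 it read 1.76 and 2.04 in tolerant and 2.40 and 2.36 in rejecting samples, which differ by -0.48 ± 0.16 (SE, limma adjusted p = 0.936). Here the tolerant arrays were the lower ones and all 4 lay above their lines.

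As the plot of all Gapdh probe sets shows, the 17 with 1 symbol repeated the order seen on arrays 3 and 4. Their median was 5.08 and 4.50 on tolerant arrays 3 and 4, against 3.89 and 5.74 on rejecting arrays 3 and 4. On the arrays numbered 1 and 2 the medians were 1.26 and 1.28 in tolerant and 1.18 and 1.48 in rejecting samples. Differences over the 17 ran from -0.32 to 0.37 on arrays 3 and 4, with 8 above 0 and 9 below. A further 24 probe sets name Gapdh together with other loci, the mouse genome being rich in processed Gapdh copies, and were kept out of the counts. Their medians were 6.06 and 5.20 on tolerant arrays 3 and 4 and 4.60 and 6.64 on rejecting arrays 3 and 4. Signal from Gapdh and from its copies cannot be told apart in these probe sets. The 17 with 1 symbol were not checked for matches to such copies either. Among them, 10553516 and 10605554 had the same values as each other on every array.

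**Figure D2:**
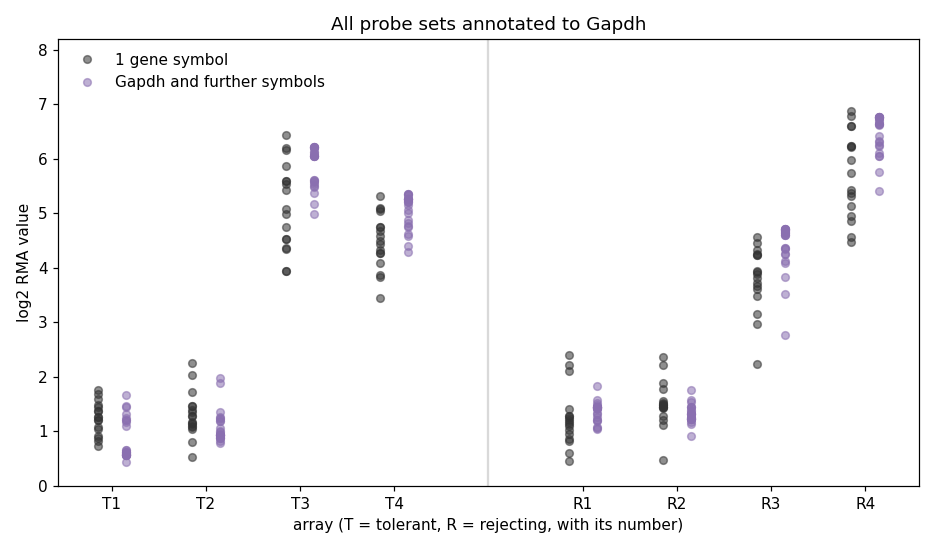
Log2 RMA values (vertical axis) of every probe set annotated to Gapdh on each array (T, tolerant; R, rejecting), as dark points for the 17 with 1 gene symbol and violet points for the 24 with further symbols. Both kinds are highest on rejecting array 4 and, among arrays numbered 3 and 4, lowest on rejecting array 3.

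Pgk1 encodes phosphoglycerate kinase, which makes the first ATP of the route. Its brightest probe set (10601390) read 0.89 and 0.73 on tolerant arrays 3 and 4 and 0.41 and 1.26 on rejecting arrays 3 and 4, with the rejecting arrays enclosing the tolerant ones. Of the 8 arrays, only rejecting array 4 passed its background line. Arrays 1 and 2 gave 0.59 and 0.30 in tolerant and 0.49 and 0.68 in rejecting samples. Its other 2 probe sets (10399379 and 10498313) had the same values as each other on all 8 arrays, so they count as 1 measurement. Small differences of a transcript at background do not show that its level was the same.

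Pgam1 encodes phosphoglycerate mutase. Its brightest probe set (10497321) read 2.65 and 2.36 on tolerant arrays 3 and 4, against 2.05 and 2.95 on rejecting arrays 3 and 4. The limma estimate was 0.00 ± 0.30 (SE, adjusted p = 0.998). In the other set it read 2.07 and 1.79 in tolerant and 2.28 and 1.70 in rejecting samples. It lay above the line on all 8 arrays, as Gapdh did among the brightest probe sets. The other 2 Pgam1 probe sets (10463168 and 10561302) also shared all their values and had the same order of arrays 3 and 4.

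Pkm encodes muscle pyruvate kinase, whose splice forms differ between resting and proliferating cells and were not separated here. The 2 probe sets differed in whether the groups overlapped. One (10528480) read 2.20 and 1.86 on tolerant arrays 3 and 4, against 1.71 and 1.56 on rejecting arrays 3 and 4, which differ by 0.40 ± 0.15 (SE, limma adjusted p = 0.668). The groups did not overlap in it. The brighter one (10585932) read 1.55 and 1.75 in tolerant and 1.34 and 1.69 in rejecting samples on those arrays, which overlapped. It hardly differed between the sets of arrays, reading 1.57 and 1.55 on tolerant and 0.74 and 1.57 on rejecting arrays 1 and 2.

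The 2 lactate dehydrogenase subunits had unlike differences on arrays 3 and 4, and the contrast between them was not tested. Ldha encodes the muscle-type subunit, favoured where pyruvate is turned into lactate, and Ldhb the heart-type subunit, favoured where lactate is oxidised. Ldha (10553301) read 2.08 and 2.22 on tolerant arrays 3 and 4, against 1.85 and 2.59 on rejecting arrays 3 and 4. The tolerant values lay between the rejecting ones, and the limma estimate was -0.07 ± 0.25 (SE, adjusted p = 0.960). Without rejecting replicate 4 the difference was 0.30, and without rejecting replicate 3 it was -0.44. The other set read 0.37 and 0.56 in tolerant and 0.85 and 0.46 in rejecting samples, all under the line.

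Ldhb had the largest difference of the 8 genes on arrays 3 and 4. Its brighter probe set (10462035) read 2.55 and 1.92 on tolerant arrays 3 and 4, against 1.03 and 1.09 on rejecting arrays 3 and 4. The rejecting values sat at their background lines of 1.01 and 1.14, which makes the size inexact. The means were 2.24 ± 0.44 in tolerant and 1.06 ± 0.05 in rejecting samples (SD, n = 2 each). The limma estimate was 1.18 ± 0.21 (SE, adjusted p = 0.257). The other probe set (10549097) read 1.64 on both tolerant arrays and 0.92 and 0.74 on the rejecting ones, which differ by 0.81 ± 0.11 (SE, limma adjusted p = 0.184). Leaving out any 1 array kept the brighter probe set's difference between 0.86 and 1.49, so the sign rested on no single array. In the plot of differences on arrays 3 and 4, both lie to the right of the other enzymes, with Aldoa at 0.77 close to the second. Neither Ldhb probe set passed the threshold over all genes.

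On the arrays numbered 1 and 2, both Ldhb differences had the opposite sign. The brighter probe set read 0.77 and 0.97 in tolerant and 0.97 and 1.27 in rejecting samples, and the other one 0.38 and 0.18 in tolerant and 0.59 and 0.46 in rejecting samples. The tolerant arrays were the lower ones in each, though the nearest values of the brighter probe set were equal to 2 decimals. Only rejecting array 2 passed its line, with the brighter probe set. The differences were -0.25 and -0.24, with standard errors of 0.17 and 0.16. The difference between the sets, arrays 3 and 4 minus arrays 1 and 2, came to 1.43 ± 0.29 for the brighter probe set (SE, limma interaction adjusted p = 0.194). For the other it came to 1.05 ± 0.19 (SE, limma interaction adjusted p = 0.151). The interaction called 0 of the 31 member probe sets and 0.0566% of all, and 2 of 31, both Ldhb, had an unadjusted p under 0.05 against 7.13% of all.

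**Figure D3:**
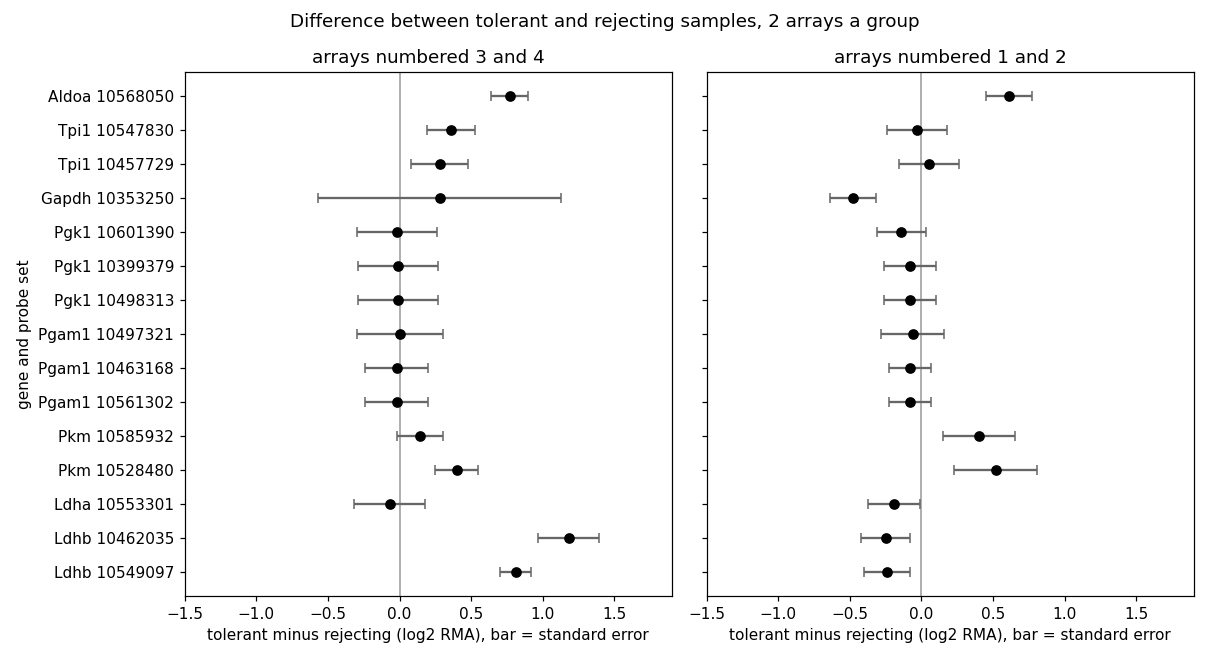
Tolerant minus rejecting differences in log2 RMA values (horizontal axis, bars are limma standard errors) for each member probe set, with Gapdh shown by its brightest one, on 2 arrays a group. The Ldhb probe sets stand at 1.18 and 0.81 on arrays numbered 3 and 4 and at -0.25 and -0.24 on those numbered 1 and 2, and Aldoa stands at 0.77 and 0.61.

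On the arrays numbered 1 and 2 as a whole, limma called 0 of the 31 member probe sets and 0% of all. At an unadjusted p under 0.05 there were 3 of 31, the Aldoa probe set and 2 of Gapdh, against 5.15% of all. Tolerant arrays were both higher in 2 of 31, against 17.2% of all, and both lower in 9 of 31, against 17.1%. Those 9 were 5 probe sets of Gapdh, 2 of which (10553516 and 10605554) had the same values as each other, 2 of Pgam1 that also shared their values, and the 2 of Ldhb. The gene medians were 0.21 on arrays 3 and 4, with 6 of 8 genes higher, and -0.10 on arrays 1 and 2, with 2 of 8 higher. Over all genes they were -0.006 and -0.002, with 48.3% and 49.5% higher. The 6 enzymes higher on arrays 3 and 4 include Pgam1 at 0.00 ± 0.30 and Gapdh at 0.28 ± 0.85 (SE), so the count shows no clear lean. Without rejecting replicate 3 the median on arrays 3 and 4 was -0.24.

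The promoter windows of the genes at the 2 ends of this split are shown because members with a like order on arrays 3 and 4 could be compared for the letters bound by HIF-1. Windows run from 250 bases before to 50 after an annotated start, 5′ to 3′ on the gene's strand, from RefSeq on GRCm38.p6. All 10 genes matched, with 16 windows. Capitals mark ACGTG, the core of the hypoxia response element, or its reverse complement CACGT. The window of Ldha, at chr7:46845554-46845853 on the plus strand, and that of Gapdh, at chr6:125165724-125166023 on the minus strand, belong to genes highest on rejecting array 4. Those of Ldhb, at chr6:142507908-142508207, and Aldoa, at chr7:126800398-126800697 for its most upstream start and chr7:126799205-126799504 for the next, are on the minus strand and belong to genes higher on both tolerant arrays.
Ldha: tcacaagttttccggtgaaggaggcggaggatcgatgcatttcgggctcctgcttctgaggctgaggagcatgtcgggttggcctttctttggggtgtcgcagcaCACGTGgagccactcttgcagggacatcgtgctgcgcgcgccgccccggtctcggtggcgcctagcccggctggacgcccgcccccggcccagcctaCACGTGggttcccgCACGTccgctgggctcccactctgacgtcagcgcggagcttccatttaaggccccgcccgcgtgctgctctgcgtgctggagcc
Gapdh: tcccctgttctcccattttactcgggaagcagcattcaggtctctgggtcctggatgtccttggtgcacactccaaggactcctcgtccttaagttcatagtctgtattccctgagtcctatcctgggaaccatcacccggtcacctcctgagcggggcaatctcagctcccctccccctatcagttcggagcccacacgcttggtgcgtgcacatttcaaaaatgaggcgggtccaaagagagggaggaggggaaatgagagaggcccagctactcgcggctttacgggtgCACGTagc
Ldhb: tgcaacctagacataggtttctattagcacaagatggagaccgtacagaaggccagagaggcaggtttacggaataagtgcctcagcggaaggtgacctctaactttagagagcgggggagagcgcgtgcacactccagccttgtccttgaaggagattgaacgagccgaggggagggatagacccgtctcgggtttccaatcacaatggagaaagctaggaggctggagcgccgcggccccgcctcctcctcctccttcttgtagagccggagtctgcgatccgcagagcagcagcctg
Aldoa, most upstream start: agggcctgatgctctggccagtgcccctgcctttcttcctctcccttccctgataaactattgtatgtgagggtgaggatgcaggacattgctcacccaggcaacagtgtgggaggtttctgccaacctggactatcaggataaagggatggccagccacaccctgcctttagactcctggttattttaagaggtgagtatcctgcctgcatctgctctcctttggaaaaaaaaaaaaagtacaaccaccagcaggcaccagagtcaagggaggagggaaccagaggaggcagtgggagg
Aldoa, next start: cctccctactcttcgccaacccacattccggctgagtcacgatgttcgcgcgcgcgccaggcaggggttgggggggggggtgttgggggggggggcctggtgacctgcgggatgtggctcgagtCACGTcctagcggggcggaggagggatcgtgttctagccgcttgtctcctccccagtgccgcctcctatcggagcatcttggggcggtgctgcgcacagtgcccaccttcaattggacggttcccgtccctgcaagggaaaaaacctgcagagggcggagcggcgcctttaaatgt

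The core was searched on both strands and occurred in 19.6% of all 32851 promoter windows. The median share of G and C letters over all windows was 52.7%. At the most upstream starts it was 56.7% to 67.3% for Gapdh, Pgk1, Pgam1 and Ldha and 52.7% to 65.0% for Aldoa, Pkm, Ldhb and Tpi1. The 19.6% was not matched for this share. Taking the most upstream start of each gene, the core was present in 4 of the 8 measured enzymes, Gapdh, Pgk1, Pgam1 and Ldha, which are the 4 that were highest on rejecting array 4. The split does not hold over all starts. One window of Pkm and 2 of the 3 of Aldoa held the core too, so that 6 of the 8 measured genes had it in some window, and the other Ldha window did not. The Ldha window held 3 stretches, 2 of which are the E-box CACGTG, a motif that contains the core and is bound by Myc. The E-box occurred in 7.2% of all windows and in that of 1 gene among the 10, Ldha, at the most upstream start. GGGCGG, the GC box, occurred in 35.7% of all windows and in 6 of the 10 genes. It is not contained in either of the other motifs. A match is a description of the letters and not a binding site, and the windows without one say nothing of the factors.

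Other genes of glucose use were read from 10 lists, of which 0 members passed limma in either direction on any set of arrays. The other glycolytic isoenzymes lay mostly under the background line. Of 16 measured, 14 passed the line on no array, among them the hexokinase Hk2, with 0.91 and 0.53 on tolerant and 0.37 and 0.43 on rejecting arrays 3 and 4. Their median difference was 0.02 there, with 9 of 16 higher. Among glycolysis regulators the median of 5 genes was 0.05, and Tigar, a fructose bisphosphatase that slows the route, read 2.21 and 1.47 in tolerant and 1.71 and 1.72 in rejecting samples on arrays 3 and 4.

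Transport and citric acid cycle genes had the highest medians of the pathway lists on arrays 3 and 4. Of 9 genes of glucose, lactate and pyruvate transport, 6 were higher, with a median of 0.30. Slc2a1, the main glucose transporter of activated T cells, read 2.19 and 1.64 in tolerant and 1.12 and 1.42 in rejecting samples (limma adjusted p = 0.599). Mpc1, a subunit of the mitochondrial pyruvate carrier, read 1.57 and 1.61 in tolerant and 1.12 and 1.04 in rejecting samples (limma adjusted p = 0.331). On arrays 1 and 2 the transport median was -0.14 with 6 of 9 lower, and Slc2a1 and Mpc1 differed by -0.11 and -0.44. Of 16 citric acid cycle genes, 16 were higher and 7 had an unadjusted p under 0.05, a share to set beside the 7.2% of all probe sets, with a median of 0.30. Idh3g, an isocitrate dehydrogenase subunit, read 2.28 and 2.03 in tolerant and 1.29 and 1.07 in rejecting samples (limma adjusted p = 0.186). Sdha and Mdh1 of the same cycle had differences of 0.63 each (limma adjusted p = 0.240 and 0.362). Both rejecting values of each lay under the line, as did that of rejecting array 4 for Mpc1 and Idh3g. These sizes are therefore inexact. Only 2 of the 16 lay above the line on all 4 arrays, and on arrays 1 and 2 the cycle's median was 0.01 with 9 of 16 higher.

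In the plot of list medians the remaining pathway lists stayed nearer to 0 on arrays 3 and 4. Medians were 0.15 for 10 pyruvate dehydrogenase genes, 0.08 each for 6 pentose phosphate, 8 gluconeogenesis and 16 hypoxia response genes, 0.13 for 6 factors driving glycolysis and -0.03 for 5 genes of the serine and glycerol branches. Most genes of these lists passed the background line on no array. In the order given they were 8 of 10, 6 of 6, 6 of 8, 9 of 16, 5 of 6 and 3 of 5. Medians near 0 at background do not show that these pathways were unchanged. The hypoxia list was not uniform. Bnip3l, a mitophagy receptor, read 2.45 and 2.59 in tolerant and 1.66 and 1.59 in rejecting samples (limma adjusted p = 0.144), and Ndrg1 had a difference of 0.86 (limma adjusted p = 0.218). Vegfa had 0.21, and 10 of 16 were higher. Hif1a itself lay above the line on 0 arrays, while Epas1, which encodes HIF-2 alpha, read 1.39 and 1.51 in tolerant and 0.59 and 0.78 in rejecting samples (limma adjusted p = 0.224). Both rejecting values of Epas1 and that of rejecting array 4 for Ndrg1 lay under the line, so these sizes are inexact. Phgdh, which diverts a glycolytic intermediate into serine, was lower, with 1.13 and 1.15 in tolerant and 1.58 and 2.06 in rejecting samples (limma adjusted p = 0.480).

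**Figure D4:**
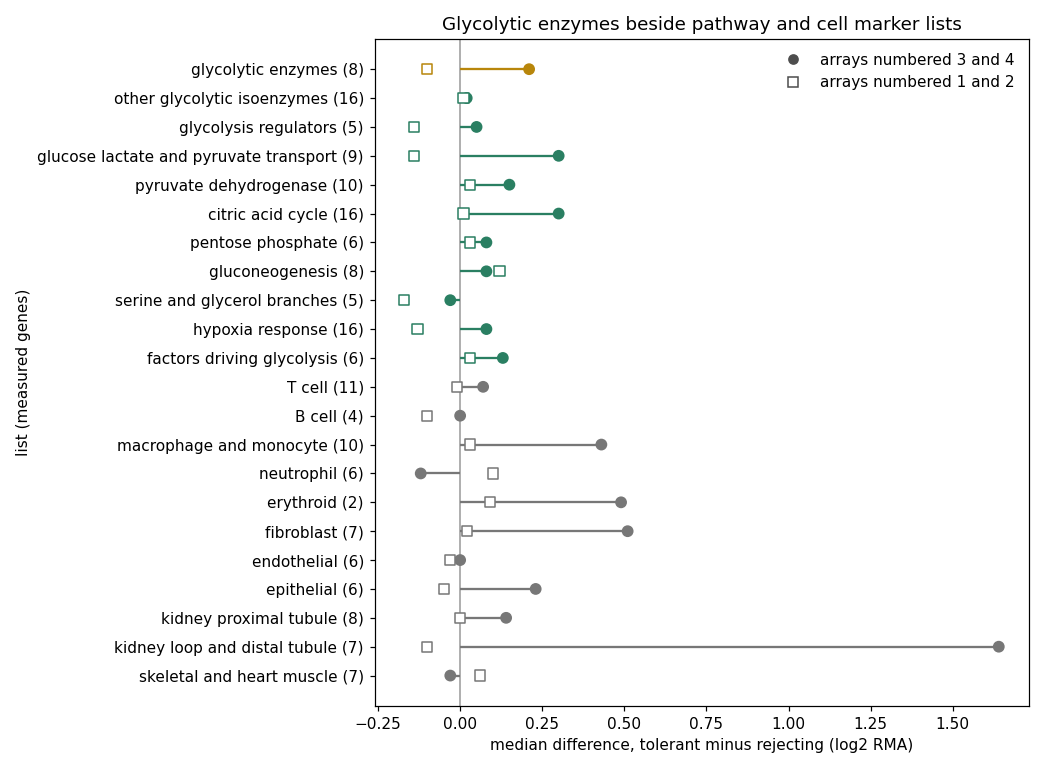
Median tolerant minus rejecting difference in log2 RMA values (horizontal axis) of each list, with the number of measured genes in brackets, circles for arrays numbered 3 and 4, squares for those numbered 1 and 2, gold for the enzymes, green for other genes of glucose use and grey for cell type markers. The enzymes stand at 0.21 on arrays 3 and 4, below the markers of kidney loop and distal tubule at 1.64.

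Markers of other cells were also higher on the tolerant arrays on which Aldoa and Ldhb were higher. The mean level of 7 kidney loop and distal tubule markers ranged from 2.29 to 2.95 on tolerant arrays 3 and 4 and from 0.76 to 0.92 on rejecting ones. All 7 were higher and Pvalb lay above the line on 0 arrays. Slc12a3 and Calb1 passed limma (adjusted p = 0.0359 and 0.0440), but 0 probe sets passed without tolerant replicate 3, without tolerant replicate 4 or when all probe sets were tested. Fibroblast markers ranged from 2.26 to 2.33 in tolerant and from 1.33 to 1.61 in rejecting samples, with 7 of 7 higher and Lum, Pdgfra and Pdgfrb above the line on 0 arrays. Macrophage and monocyte markers ranged from 1.44 to 1.57 in tolerant and from 0.55 to 1.01 in rejecting samples, with 8 of 10 higher and Adgre1, Fcgr1 and Itgam above the line on 0 arrays. T cell markers ranged from 1.09 to 1.43 in tolerant and from 0.97 to 1.07 in rejecting samples, with 9 of 11 higher. Epithelial markers ranged from 1.09 to 1.22 in tolerant and from 0.81 to 0.89 in rejecting samples, with 6 of 6 higher, and proximal tubule markers from 0.66 to 0.95 in tolerant and from 0.54 to 0.65 in rejecting samples, with 6 of 8 higher. Both measured erythroid markers were higher, with a median of 0.49. Epcam and Krt19 of the epithelial list and Alas2 of the erythroid list lay above the line on 0 arrays. So did Lrp2, Cubn, Slc5a2, Slc22a6 and Slc27a2 of the proximal tubule list. The medians of B cell, neutrophil, endothelial and muscle markers lay between -0.12 and 0.00, but 3 of 4, 6 of 6, 4 of 6 and 4 of 7 passed the line on no array. The part of these markers in the enzyme differences was not tested.

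The ranges of the kidney loop, fibroblast and macrophage markers overlapped between the groups on arrays 1 and 2. The kidney loop and distal tubule markers ranged from 0.47 to 0.60 in tolerant and from 0.51 to 0.59 in rejecting samples there. Fibroblast markers ranged from 0.95 to 1.03 in tolerant and from 0.89 to 0.99 in rejecting samples, and macrophage markers from 0.56 to 0.65 in tolerant and from 0.51 to 0.66 in rejecting samples. All these means lay under the background lines of their arrays, so the overlap does not show that the groups were alike.

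The genes whose pattern was most like the mean of the 8 enzymes were sought among 1431 genes above the line on at least 4 arrays. Likeness was Pearson's r over the 8 arrays after each set's mean was subtracted, given as a description. The highest were Slc25a5 (0.994), Klf9 (0.964), Atp5b (0.950), Fbrsl1 (0.938), Cycs (0.927) and Cdc42 (0.920). Slc25a5, the adenine nucleotide translocator, read 3.81 and 2.73 on tolerant arrays 3 and 4, against 1.15 and 3.51 on rejecting arrays 3 and 4. Atp5b, the beta subunit of the ATP synthase, and Cycs, cytochrome c, also act in respiration. The mean of the enzymes was 2.69 and 2.41 on those tolerant arrays and 1.88 and 2.56 on those rejecting arrays. Rejecting array 3 was thus the low array in this shared pattern. Each enzyme against the mean of the other 7 gave 0.70 for Gapdh, 0.69 for Pgk1, 0.64 for Pgam1, 0.42 for Ldha, 0.40 for Ldhb, 0.39 for Aldoa, 0.13 for Tpi1 and 0.08 for Pkm.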

How the data were processed

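Total RNA from 8 samples, 4 tolerant and 4 rejecting, was hybridised to whole-transcript arrays with biotin label. The values for 35556 probe sets are deposited as log2 expression. The submitters' processing notes name Expression Console and RMA, with no version, library file or genome build. The log base is not stated either, and base 2 was taken because array maxima were 12.57 to 12.68. Gene names came from the platform annotation. Of the probe sets, 21218 had 1 gene symbol, 1881 several and 12457 none listed. The members and lists were chosen with earlier results of these data known.

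Differences were fitted with limma 3.58.1 in R 4.3.3 (empirical Bayes, no trend, 2-sided, Benjamini-Hochberg over the 21218 probe sets, threshold 0.05), over all 8 arrays, within each set of 4 arrays and as an interaction. The fits over all 8 arrays and over arrays 3 and 4 were tried on simulated data. Those data held no gap between the sets, so they do not bear on the real fit over all 8 arrays. Where a gene had several probe sets, the one brightest on average represented it. The loci that the probe sets match were not checked, so some may match copies of a gene. The background line of an array was the 99th percentile of 1182 receptor probe sets. There are no detection calls, and the number of arrays limits the precision. The genes named were the 10 members, up to 4 genes per pathway list with the smallest unadjusted p on arrays 3 and 4, and the 6 most like the enzymes' mean. Hif1a was one of the 4 of its list. Markers were named by list. Deviations from group means of same-numbered arrays correlated by 0.499, 0.507, 0.410 and 0.599 across probe sets, but arrays of unlike number in the same set did so too (tolerant 3 and rejecting 4 by 0.581), and the labels give no pairing. The main fits have no block, and the number as a block was an alternative. Alternatives were each array left out, further normalization, a filter on dim probe sets, trend and robust moderation, all probe sets, blocks and averaging the probe sets of a gene. Plots used Python 3.11.15 and matplotlib 3.10.9.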

Additional observations from a re-analysis of the deposited data

Results flagged for a closer look

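In the brighter Pkm probe set (10585932), 1 of the 4 tolerant arrays stood apart. The values were 1.57, 1.55, 1.55 and 1.75, so tolerant array 4 was the highest, and its gap to the next value took up 0.886 of the group's range, above Dixon's critical value of 0.829. The range itself was small. The check was run on 62 groups of 4 values. Chance alone flags about 1 in 20 where the 4 values come from 1 population. That rate need not hold here, because each group joined both sets of arrays and some probe sets shared their values.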

How the results depend on the processing

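The brightest probe set of each enzyme, or the mean of its probe sets, was followed over all 8 arrays and within each set, and none passed the threshold where it was fitted. In the alternatives of each fit, Aldoa and Ldhb kept the direction of that main fit. For Ldhb this was 1.18 on arrays 3 and 4 but -0.25 on arrays 1 and 2. The filter on dim probe sets removed Aldoa and Ldhb on arrays 1 and 2, and enzymes were not followed singly over all probe sets or in alternatives of the interaction. On arrays 3 and 4, 11 probe sets of all were called, against 6 after quantile normalization, 5 with the filter on dim probe sets, 26 with trend and robust moderation and 0 over all probe sets. The interaction called 12, against 0 after quantile normalization and 0 over all probe sets. Leaving out 1 array gave 0 to 48 calls on arrays 3 and 4 (48 without rejecting replicate 4), 0 to 2 on arrays 1 and 2 and 0 to 76 for the interaction. The enzymes' median then ran from -0.10 to 0.33 over all 8 arrays, -0.24 to 0.43 on arrays 3 and 4 and -0.18 to 0.04 on arrays 1 and 2, where the dim filter gave -0.06 over the 3 genes it left, Gapdh, Pgam1 and Pkm. With the replicate block, 0 probe sets were called over all 8 arrays, 8 on arrays 3 and 4 and 0 on arrays 1 and 2, the medians stayed at 0.07, 0.21 and -0.10, and no call of an enzyme's brightest probe set changed.

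Several small differences changed sign when 1 array was left out. Over all 8 arrays the range was -0.95 to 0.86 for Gapdh, -0.46 to 0.25 for Ldha, -0.21 to 0.21 for Pgam1, -0.18 to 0.10 for Pgk1 and -0.03 to 0.38 for Tpi1. On arrays 3 and 4 it was -1 to 1.55 for Gapdh, -0.44 to 0.30 for Ldha, -0.44 to 0.45 for Pgam1, -0.45 to 0.41 for Pgk1 and -0.03 to 0.31 for Pkm. On arrays 1 and 2 it was -0.39 to 0.00 for Ldha, -0.35 to 0.23 for Pgam1, -0.28 to 0.00 for Pgk1, -0.01 to 0.82 for Pkm and -0.26 to 0.20 for Tpi1. Pgam1 on arrays 3 and 4, at 0.00, became -0.08 after quantile normalization, 0 to 2 decimals but below it after median centring, and -0.01 as the mean of its probe sets. Tpi1 on arrays 1 and 2 became 0.01 as the mean of its probe sets. The cause was not tested. With 2 arrays a group and signals near background, the arrays limit what could be detected.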
